A study of Mus musculus with 2 samples.

Results

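The route from the growth factor FGF4 to the kinase ERK was followed through 9 genes in mouse embryonic stem cells (mESCs), out of 22556 genes in the count table. The members were taken by name: the ligand Fgf4, the receptors Fgfr1 and Fgfr2, the adaptor Grb2, the exchange factor Sos1, the kinase Mapk3 (ERK1), and the feedback inhibitors Spry2, Spry4 and Dusp6. All 9 were found in the table, all 9 had at least 10 counts in total, and all 9 reached a mean of at least 1 TPM (transcripts per 1000000, here counts per kb of exon scaled to that sum in each library).

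FGF4 is secreted by ES cells and binds FGF receptors together with heparan sulphate. The activated receptor recruits the adaptor GRB2 and the exchange factor SOS, which loads RAS with GTP and so starts the RAF, MEK and ERK kinase cascade. In ES cells this signal is known for letting cells leave self-renewal, and in the blastocyst FGF4 from the epiblast directs neighboring cells to primitive endoderm. ERK also switches on Sprouty and dual-specificity phosphatase genes, whose products damp the signal.

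The cells were the female XX line iXist-ChrX-Dom (strain Dom/129S x Cast, 1 clone, B2), in which a TetOn promoter stands in place of the endogenous Xist promoter on the Dom/129S allele. They were untreated (0 h), grown in serum with LIF-conditioned medium, and taken after feeder fibroblasts had been removed by pre-plating. The series has 1 group of 2 replicates and therefore no contrast between conditions. The sources do not say whether the replicates were separate cultures, so the spread between them may be technical.

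The libraries held 23716499 counts (replicate 1) and 20275749 counts (replicate 2), at which a count of 0 allows up to 0.126 and 0.148 counts per 1000000 (CPM). These floors, and the intervals given for single values, reflect counting error alone. The cell type label reads "mESC to NPC", whereas the titles name ES cells. All 12 ES cell markers examined had a mean of at least 10 TPM, and they summed to 5420 and 4795 TPM. The 10 feeder fibroblast markers summed to 3.04 and 0.802 TPM and the 9 neural precursor markers to 5.29 and 4.47 TPM, with Sox1 and Olig2 at 0 counts in both libraries. The 7 primitive endoderm markers summed to 16.5 and 16.0 TPM, mostly from Dab2 with a mean of 12.2 TPM.

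Fgf4 was the most abundant member per exonic length. Its level was 254.5 TPM in replicate 1 and 161.9 TPM in replicate 2, a mean of 208 ± 65.5 TPM (SD, n = 2). Both values lay above those of every other member, and the mean ranked 1074 of the 22137 genes with an exonic length. The gene lies at chr7:144861385-144865243 on the plus strand (mm10, the GRCm38 assembly) and has 3 exons. A joint site for SOX and POU factors such as SOX2 and OCT4 lies inside its own 3′ UTR, so the transcript carries it. It is shown because this element is known as the enhancer of Fgf4 in ES cells. The stretch comes from exon 3 of the GENCODE M21 transcript, at chr7:144864388-144864417 on the plus strand, and the capitals mark the SOX part and the POU part:
Fgf4 SOX and POU site: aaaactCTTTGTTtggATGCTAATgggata

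The letters searched for were CTTTGTT, any 3 bases, then ATGC, any base and AAT, on both strands. They occurred in 1 of the 20158 longest coding transcripts (0.00496%), that of Fgf4. The search required a match in Fgf4, so that match was fixed in advance. A match of letters is a description and does not show that a factor was bound.

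Fgf4 was one of 18 FGF ligand genes in a list of the pathway, of which 6 reached a mean of 1 TPM. Fgf10, the second in exonic TPM, had 29.1 and 36.4 TPM, so that the mean of Fgf4 was 6.35 times higher (Fgf10 is named here after its value was seen). Fgf17 had 2.60 and 0.686 TPM from 33 and 7 counts. Fgf6, Fgf21 and Fgf22 had no count in either library. Fgf4 was the highest of the ligands in both replicates.

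Fgfr1, the receptor usually named as the main one of ES cells, had levels of 16.5 and 10.4 TPM (13.4 ± 4.32 TPM, SD, n = 2). Fgfr2, the receptor associated with primitive endoderm, had 8.58 and 9.18 TPM (8.88 ± 0.426 TPM, SD, n = 2). The replicate ranges were apart, with Fgfr1 above Fgfr2 in both libraries, but the excess differed. On the log2 scale the TPM of Fgfr1 over Fgfr2 was 0.94 in replicate 1 and 0.18 in replicate 2, a mean of 0.56 ± 0.54 (SD, n = 2). With the length of the longest transcript the order turned in replicate 2 (−0.02), and with the deposited span length, which includes introns, the mean was 1.46. An exact permutation test of 2 against 2 values cannot give a two-sided p below 0.333, so no pair of genes was tested.

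Fgfr1 and Fgfr2 held most of the message of the receptors Fgfr1 to Fgfr4. Of the summed TPM of Fgfr1 to Fgfr4, Fgfr1 took 62.4% in replicate 1 and 49.9% in replicate 2, and Fgfr2 took 32.5% and 44.2%. Fgfr3 took 2.63% and 2.72% and Fgfr4 2.43% and 3.12%, from 13 to 23 counts a library. Both of the last had mean levels under 1 TPM (0.630 ± 0.0930 and 0.644 ± 0.00468 TPM, SD, n = 2). Fgfr1 lies at chr8:25518758-25575718 on the plus strand, where an unnamed locus (LOC102633315) overlaps it on the other strand, and Fgfr2 at chr7:130162450-130266808 on the minus strand.

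Sos1, which loads GTP onto RAS, was the second member in exonic TPM, with 77.0 and 95.8 TPM (86.4 ± 13.3 TPM, SD, n = 2). Grb2, which links SOS to the receptor, followed with 65.2 and 47.5 TPM (56.3 ± 12.5 TPM, SD, n = 2). The replicate ranges of the pair were apart but close, and the mean of Sos1 was 1.53 times that of Grb2. Grb2 shares 8.38% of the 50-base words of its longest transcript with the pseudogene Gm12791, so its count may be affected by reads that match both. The other members share at most 0.0571% with another gene.

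Sos1 was also above its paralogue Sos2 in both libraries. The log2 TPM of Sos1 over Sos2 was 1.39 in replicate 1 and 1.59 in replicate 2, a mean of 1.49 ± 0.14 (SD, n = 2), and Sos1 took 72.4% and 75.1% of their summed TPM. This was the closest agreement between replicates among the 3 paralogue ratios given here. Sos1 lies at chr17:80393751-80480453 and Grb2 at chr11:115644143-115708597, both on the minus strand.

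Mapk3 encodes ERK1 and was the lowest member by mean exonic TPM. It had 53 counts in replicate 1 and 4 counts in replicate 2, which are 3.50 TPM (95% Wilson interval of counting 2.68 to 4.58) and 0.329 TPM (0.128 to 0.845), a mean of 1.92 ± 2.24 TPM (SD, n = 2). The intervals do not overlap, and the SD is larger than the mean. The level in replicate 2 rests on 4 counts.

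A stretch of Mapk3 is shown, located by its codons, and its GC content is given below it. It encodes the activation loop, whose threonine and tyrosine are phosphorylated by MEK, and capitals mark the codons of threonine, glutamate and tyrosine. The stretch lies at chr7:126763428-126763493 on the plus strand, in exon 4 of 9, and is coding (GRCm38, GENCODE M21 transcript):
Mapk3: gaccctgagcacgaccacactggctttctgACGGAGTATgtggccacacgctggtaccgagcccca

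GC content was 62.1% over these 66 bases, 57.5% over the whole coding sequence and 75.3% at the last codon positions. Over the longest transcript it was 57.6%, beside a median of 49.3% over the genes with a mean of at least 1 TPM. The transcript is 1800 bases long and shares 1 of its 50-base words with another gene. Mapk3 lies at chr7:126759625-126765816 on the plus strand.

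Spry2, a Sprouty that acts on the RAS and RAF step, had 31.9 and 29.4 TPM (30.6 ± 1.74 TPM, SD, n = 2). Dusp6, the phosphatase that removes phosphate from ERK in the cytoplasm, had 18.5 and 21.9 TPM (20.2 ± 2.47 TPM, SD, n = 2). Spry4, another Sprouty, had 3.27 and 1.98 TPM (2.63 ± 0.912 TPM, SD, n = 2). The replicate ranges of Spry2 and Dusp6 did not overlap each other, and Spry4 was below both genes in each library.

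The log2 TPM of Spry4 over Spry2 was −3.28 in replicate 1 and −3.89 in replicate 2, a mean of −3.59 ± 0.43 (SD, n = 2). Of the summed TPM of Spry1, Spry2 and Spry4, Spry2 took 53.2% and 45.1%, Spry1 41.3% and 51.9%, and Spry4 5.47% and 3.04%. Spry1 and Spry2 exchanged the top place between the libraries, and Spry4 was last in both. Spry3 was on the pathway list, but no gene of that symbol was in the count table. Spry2 lies at chr14:105891946-105896819 on the minus strand, Dusp6 at chr10:99263230-99267489 on the plus strand and Spry4 on chromosome 18.

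The members were then put in order of mean exonic TPM, which was Fgf4, Sos1, Grb2, Spry2, Dusp6, Fgfr1, Fgfr2, Spry4 and Mapk3. Neighbors were 1.37 to 3.38 times apart, and only Spry4 and Mapk3, the last pair, had replicate ranges that overlapped. The members with at least 10 TPM were 6, among them none of the last 3. The 12249 genes with a mean of at least 1 TPM had a median of 18.4 TPM, so that 5 members lay above this median and 4 below. With the span length, Fgf4 stayed at the top (846 TPM), but the short genes Dusp6 (69.2 TPM) and Spry2 (68.3 TPM) passed Sos1 (43.9 TPM), and Fgfr2, with a span of 104359 bp, came last (2.27 TPM). With the length of the longest transcript the order of the 9 means was the same as with exonic length.

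**Figure D1:**
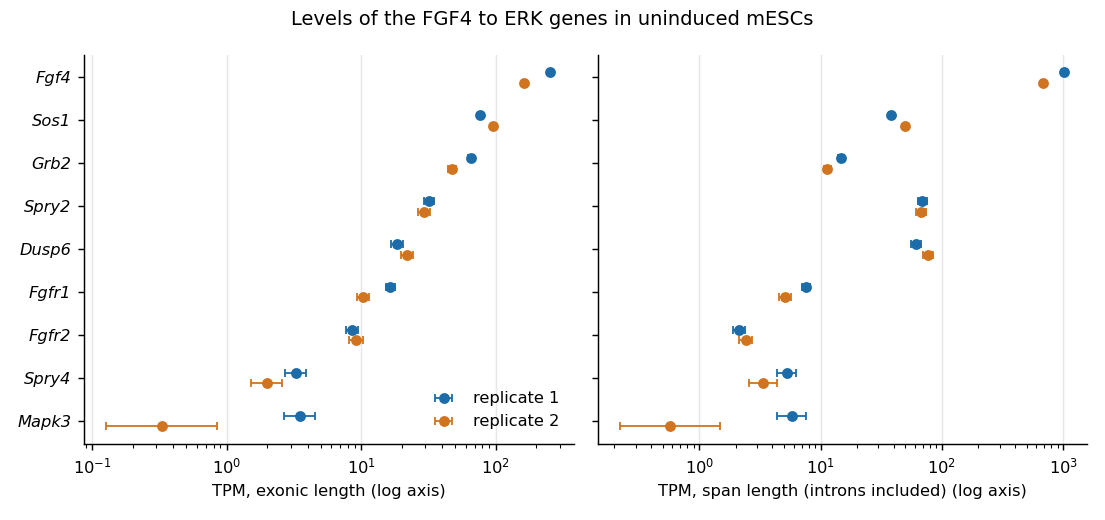
Level of each member in TPM on a log axis, with exonic length on the left and with the span length, introns included, on the right. Points are the 2 replicates and bars the 95% Wilson intervals of counting. Fgf4 is at the top on both scales (208 and 846 TPM on average), and Mapk3 shows the widest gap between replicates.

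The members differed between the libraries to unequal degrees. Mapk3 was 11.3 times higher in CPM in replicate 1, whereas Sos1 had 4884 counts in each library, which is a higher CPM in the shallower replicate 2. The 2 counts of each gene were compared with the ratio of library totals by a two-sided exact binomial test with Benjamini-Hochberg adjustment at 0.05 over 14536 genes. This test compares these libraries, not conditions. Of the 9 members 6 passed, 5 lower in replicate 2 and 1 higher. Over all genes tested 60.8% passed, 45.7% lower in replicate 2 and 15.1% higher, so that the members' count lay near that of all genes. With TMM effective library sizes, which raise every log2 ratio by 0.26, 8 members passed, 5 lower and 3 higher, beside 57.7% of all genes (28.9% lower and 28.8% higher).

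Fgf4 had 244.5 CPM in replicate 1 and 146.2 CPM in replicate 2, a log2 ratio of replicate 2 over replicate 1 of −0.74 (95% interval of counting −0.81 to −0.68). Fgfr1 had 27.2 and 16.1 CPM, a log2 ratio of −0.76 (−0.95 to −0.56). Grb2 had 59.7 and 40.9 CPM, a log2 ratio of −0.54 (−0.67 to −0.42). All 3 were lower in replicate 2 by amounts well beyond counting error, also with TMM sizes.

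Spry4 had 4.93 and 2.81 CPM, a log2 ratio of −0.80 with the wider interval of −1.29 to −0.34 that its 117 and 57 counts allow. Mapk3 had 2.23 and 0.197 CPM, a log2 ratio of −3.35 (−5.43 to −2.06). Sos1 was the member that passed in the other direction, with 205.9 and 240.9 CPM and a log2 ratio of 0.23 (0.17 to 0.28).

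The remaining 3 members did not pass. Fgfr2 had a log2 ratio of 0.01 (−0.22 to 0.24, adjusted p = 0.963 in the exact binomial test), Dusp6 one of 0.16 (−0.05 to 0.37, adjusted p = 0.178 in the exact test) and Spry2 one of −0.20 (−0.40 to −0.01, adjusted p = 0.0660 in the exact test). With TMM sizes Fgfr2 and Dusp6 passed as higher in replicate 2 (adjusted p = 0.0427 and 0.000180, exact binomial test), and the ratio of Spry2 changed sign to 0.05.

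The size of the difference ran with GC content. Across the 9 members the log2 ratio and the GC content of the longest transcript had a Spearman's rho of −0.87, and across 9241 autosomal genes (50 counts or more in both libraries) a rho of −0.66. Genes are not independent, all points share the same libraries, and no p is given. Sos1 had the lowest GC content of the members (41.0%) and Mapk3 the highest (57.6%).

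A curve of degree 3 fitted on those autosomal genes gave a ratio between these libraries for each GC content. Genes with few counts, Mapk3 among them, did not enter the fit. The 414 genes within 1 point of the GC content of Mapk3 and with 20 to 100 counts in replicate 1 had a median log2 ratio of −1.08, below the −0.77 of the curve for Mapk3, so that Mapk3 lay closer to their median than to the curve, and 1.69% of them had a ratio at or below its −3.35. The set was picked by its counts in replicate 1, which can itself lower its ratio. Tested against the curve, 4 members passed, beside 44.5% of all genes (21.6% lower in replicate 2 and 23.0% higher). Fgf4 and Mapk3 lay below the curve, at distances of −0.27 and −2.58 on the log2 scale, and Dusp6 and Fgfr2 lay above it, at 0.51 and 0.42. Fgfr1, Grb2, Sos1, Spry2 and Spry4 were within 0.31 of it and did not pass. The members that passed as lower in replicate 2 in both tests were thus Fgf4 and Mapk3. Spry4 lay further below the curve than Fgf4, at −0.31, but had only 117 and 57 counts (adjusted p = 0.296 against the curve, exact binomial test). Passing therefore depends on the number of counts as well as on the distance.

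**Figure D2:**
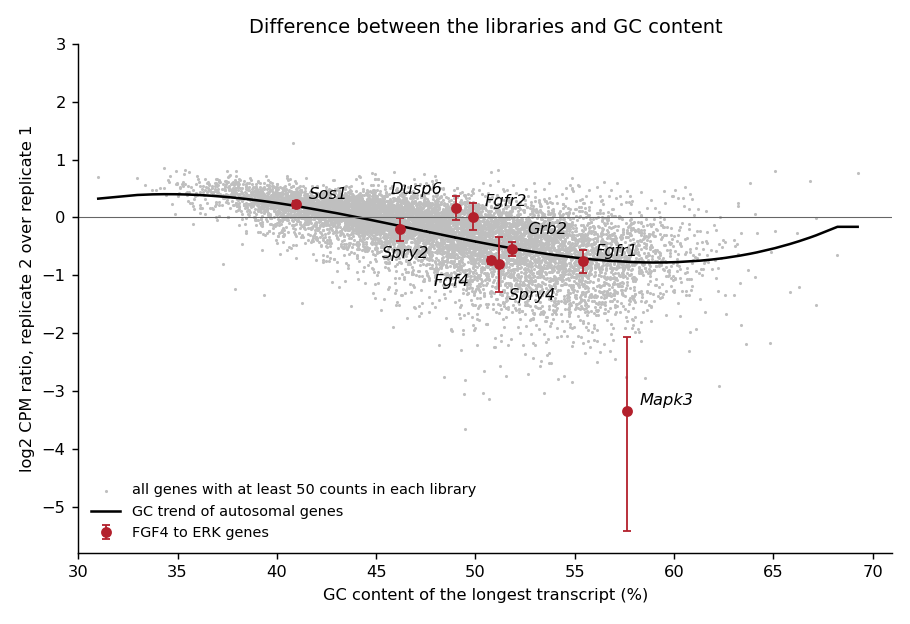
Log2 CPM ratio of replicate 2 over replicate 1 against the GC content of the longest transcript in percent. Gray points are genes that had 50 counts or more in both libraries, the black line is the curve of autosomal genes, and red points are the members with 95% counting intervals. Most members lie near the line, and Mapk3 is at a distance of −2.58 from it.

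The summed TPM of the feeder fibroblast markers was also lower in replicate 2 (3.04 against 0.802 TPM, from 61 and 20 counts over 10 genes). Thy1 supplied 32 and 2 of these counts, Lum was at 0 in both libraries, and the collagen gene Col1a1 had 4 and 5 counts. Of the 12 ES cell markers 11 passed as lower in replicate 2 and 1 as higher in the exact binomial test (all genes 45.7% and 15.1%). With TMM sizes 7 were lower and 3 higher (all genes 28.9% and 28.8%), and against the GC curve described above 7 were lower and 4 higher (21.6% and 23.0%). The part of either in the members' differences was not tested. In bulk RNA, fewer cells that express a gene and less RNA of it per cell cannot be told apart.

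A list of 84 pathway genes in 9 role classes, the members included, had 83 genes in the table, and 64 of these reached a mean of 1 TPM. At least 10 TPM was reached by 39 genes and at least 100 TPM by 10. Of the 64 genes 9 were the members and 55 others, and the ligands were the only class with most of its genes under 1 TPM (6 of 18 reached it). All 8 genes of heparan sulphate synthesis, all 9 adaptors and exchange factors, all 3 RAS genes and all 9 kinases reached it.

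Glce, which converts glucuronic to iduronic acid in heparan sulphate, was highest in its class with 95.2 and 85.2 TPM. Gab1, a docking adaptor, had 85.8 and 89.6 TPM, level with Sos1. Shoc2, a scaffold that helps RAF activation, had 120.6 and 160.0 TPM.

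Among the inhibitors, Rasa1, which speeds GTP hydrolysis by RAS, was highest with 182.5 and 245.6 TPM, well above the 3 inhibitors among the members. Fos, an immediate early target of ERK, was highest among the targets with 48.1 and 58.2 TPM. The X-linked kinase gene Araf had 111.5 and 114.1 TPM (113 ± 1.79 TPM, SD, n = 2), and took 37.6% and 37.5% of the summed TPM of the 3 RAF genes.

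**Figure D3:**
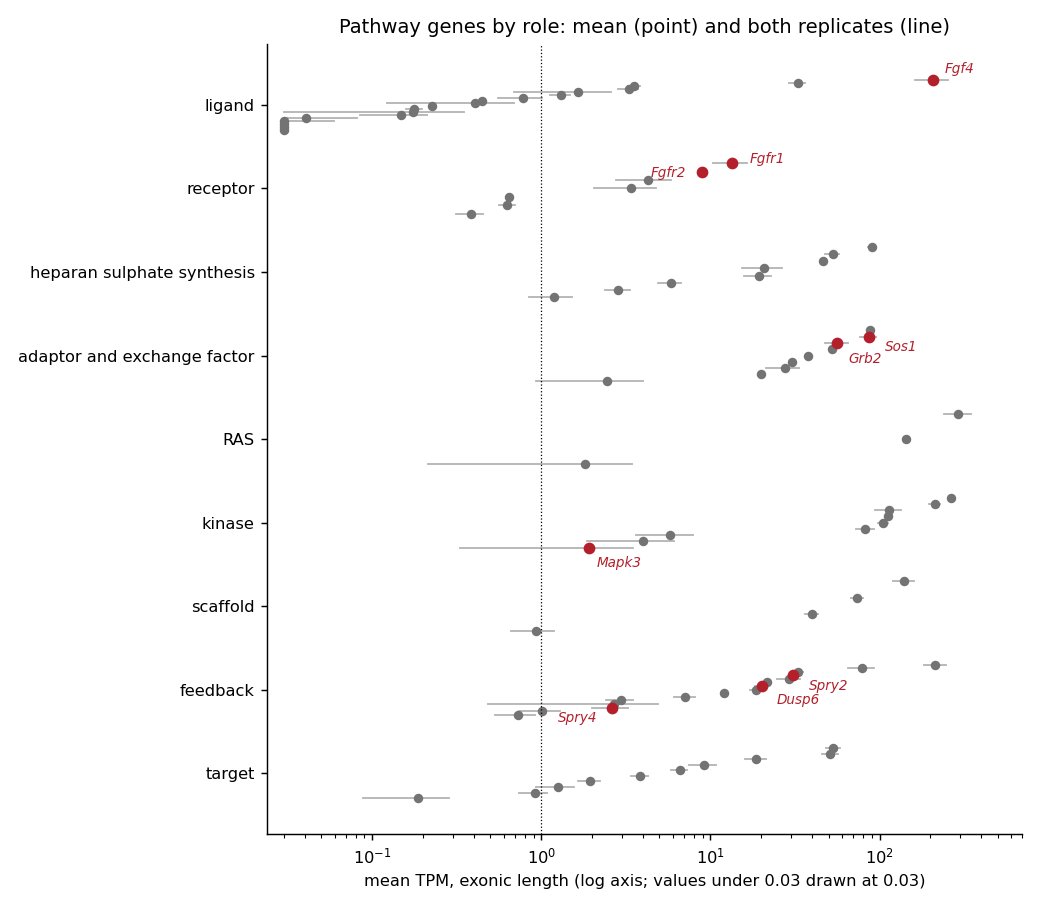
Mean exonic TPM (log axis) of the pathway genes in the table by role class, with members in red, other genes in gray and a line from one replicate to the other. The dotted line stands at 1 TPM. Genes without counts are drawn at the left edge. Fgf4 stands apart from the other ligands, and Mapk3 is the lowest kinase.

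Of the 73 pathway genes tested between the libraries 45 passed (61.6%, beside 60.8% of all genes), 31 lower in replicate 2 and 14 higher (all genes 45.7% and 15.1%). With TMM sizes 44 passed, 18 lower and 26 higher, beside 28.9% lower and 28.8% higher over all genes. Against the GC curve 33 passed, 12 lower and 21 higher, beside 21.6% and 23.0% over all genes. The split of all genes thus moved with the scaling as well, since TMM sizes raise every ratio by the same amount. Without the members 39 of 64 passed. By class, 7 of 8 heparan sulphate genes were lower and 1 higher, but 2 were lower and 1 higher with TMM sizes. The median log2 ratio was −0.25 over the list and −0.31 over all genes tested.

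Other pathway genes with few counts also lay below the GC curve, which was fitted without them. Hras, a RAS gene, had 80 and 4 counts, a log2 ratio of −3.93 and a distance of −3.23 from the curve. Dusp9, an X-linked phosphatase of ERK, had 100 and 8 counts, a log2 ratio of −3.34 (−4.67 to −2.38), and 4.89 and 0.486 TPM. Frs3, a docking adaptor of the receptor, had 64 and 12 counts and a log2 ratio of −2.14. These genes are rich in GC (55.2% to 60.9%) and had at most 100 counts in either library, and they passed with library totals, with TMM sizes and against the GC curve. Not every gene of this kind lay below it. Dusp7, a phosphatase of ERK named after its values were seen, had 58 and 68 counts at 57.6% GC and lay 1.22 above the curve, where it passed.

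Map2k2 (MEK2), named after its values were seen, had 110 and 27 counts and also passed all 3 tests. It took 2.99% of the summed TPM of the MEK pair in replicate 1 and 0.808% in replicate 2.

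The largest ratios that passed in the other classes were all lower in replicate 2. They were −1.93 for Fgf17, −1.30 for Fgfrl1 (a receptor without a kinase domain), −0.92 for Ndst2 (heparan sulphate sulphation), −0.92 for Ksr1 (a RAF and MEK scaffold) and −0.62 for Ier3 (an immediate early gene). None of these 5 passed against the GC curve, and Ndst2, Ksr1 and Ier3 did not pass with TMM sizes.

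Several feedback genes and targets, Dusp6 among them, lay above the curve in replicate 2. Of the 15 feedback genes tested 5 were lower in replicate 2 and 4 higher with library totals, but 1 lower and 7 higher against the GC curve, beside 21.6% and 23.0% of all genes. Spry1, the paralogue of Spry2 and Spry4, was higher in replicate 2 under each scaling, with 540 and 595 counts, a log2 ratio of 0.37 and a distance of 1.12 above the curve. Of the 9 targets tested 3 were higher against the curve and none lower. Fos was the target named by rule, with a distance of 0.72, and Egr1 and Ier2, named after their values were seen, lay 1.00 and 1.08 above it. Their measured log2 ratios were smaller, 0.24 and 0.32, since the curve gave −0.76 for each. With library totals Egr1 did not pass (adjusted p = 0.278, exact binomial test), and Ier2 passed narrowly (adjusted p = 0.0499, exact binomial test).

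The other targets tested stayed within 0.28 of the curve. Etv5, a target that ES cells express well (57.1 and 45.5 TPM, named after its values were seen), had a distance of 0.12 and shares 26.8% of its 50-base words with the pseudogene Gm4798, so that its level is uncertain. The inhibitors Spry2 and Spry4 had distances of −0.06 and −0.31, which did not pass. With library totals Spry1 was higher in replicate 2 and Spry4 lower, and the difference between these genes was not tested.

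**Figure D4:**
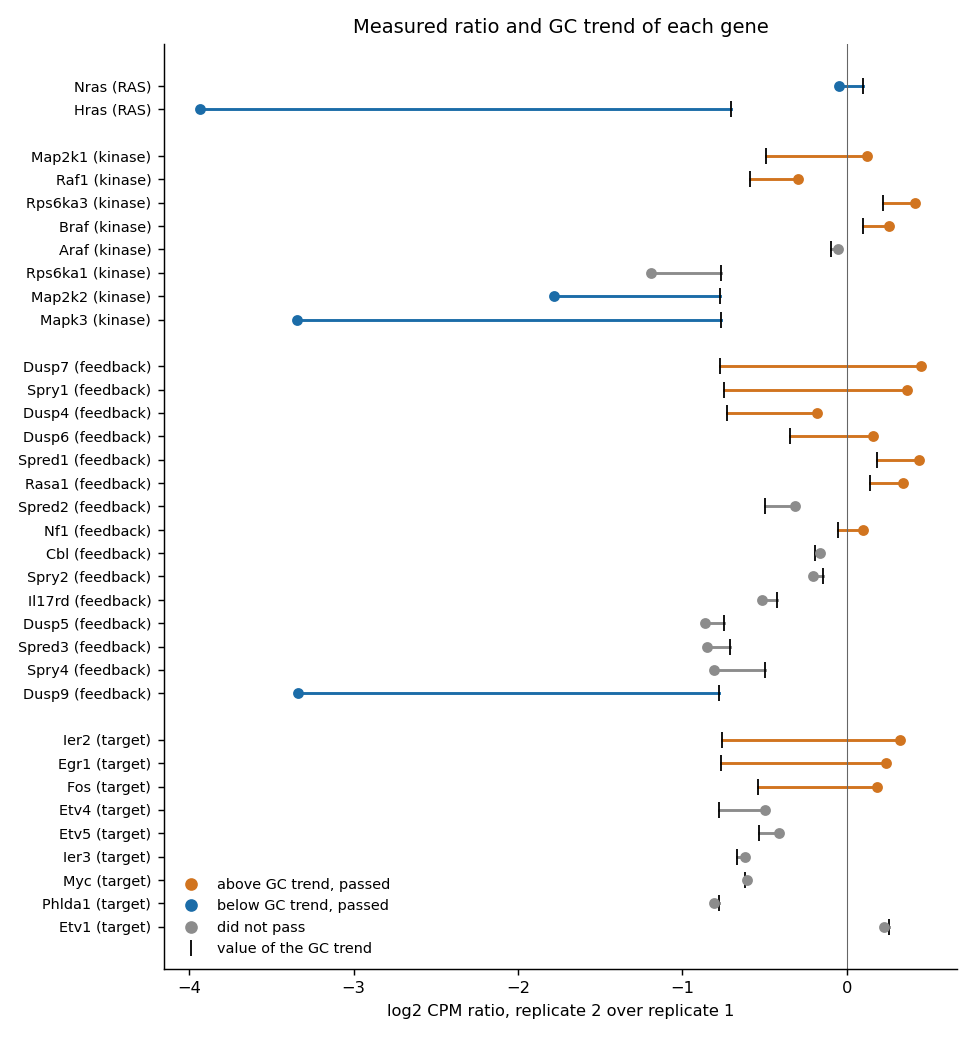
Log2 CPM ratio of replicate 2 over replicate 1 (points) and the value of the GC curve (vertical ticks) for the RAS genes, kinases, feedback genes and targets drawn. Orange and blue mark genes that passed above and below the curve in the exact binomial test, and gray those that did not pass. Mapk3, Hras and Dusp9 are at distances of −2.58, −3.23 and −2.56 from the curve, while 7 feedback genes and 3 targets passed above it.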

How the data were processed

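Poly(A) RNA from 2 replicates of 1 group was sequenced as stranded libraries. The authors deposited whole-number counts per gene, made by featureCounts 1.5.2 (per the file headers, reverse-stranded option 2, fragments, transcript features) on mm10. Bowtie2 2.3.2 and STAR 2.4.2a stand in the submitters' processing notes. The counts therefore include any intronic fragments, and the deposited length spans introns. The authors describe intronic reads as very few in their mRNA data, and their share was not measured here. Replicate totals were 23716499 and 20275749.

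TPM was computed from the deposited counts with the union of GENCODE M21 basic exons, found for 21258 genes under their symbol and for 879 under an older symbol (98.1% of the table). Span and longest-transcript lengths were alternatives. GC content came from the longest transcript. Log2 ratios are of CPM after adding 0.5 counts. The exact binomial test used scipy 1.17.1, with BH adjustment over genes whose 2 counts sum to 10 or more. Alternatives were TMM (edgeR 4.0.16, R 4.3.3), DESeq2 1.42.0 size factors, a GC curve fitted on autosomal genes (50 counts or more in both libraries), no filter, and 10 counts or more in both libraries. The binomial test was tested on simulated data. Sequences were read from GENCODE M21 transcripts. Protein sequences were not used here.

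Named genes were the 9 members, their paralogues, the X-linked genes Araf and Dusp9, and in each role class the gene with the highest mean TPM and that with the largest ratio among those that passed. The members, lists and rule were chosen with earlier results of these data known. The names of the count columns lack a letter that the sample descriptions carry, and were matched by the rest. Some genes that the rule names are not reported here.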

Additional observations from a re-analysis of the deposited data

How the results depend on the processing

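No alternative to the 3 log2 ratios between genes changed the sign of the mean (Fgfr1 over Fgfr2 was −0.02 in replicate 2 alone with the longest transcript), but the split of genes into lower and higher in replicate 2 turned with the scaling. With 2 replicates, a value with 1 left out always lies within 1 SD of the mean, so those alternatives say nothing of stability. The span length left 5 members with at least 10 TPM in place of 6 (Fgfr1 moved from 13.4 to 6.36 TPM, and Grb2 from 56.3 to 13.1 TPM), and it moved the log2 ratio of Fgfr1 over Fgfr2 to 1.46, that of Sos1 over Sos2 to 2.26 and that of Spry4 over Spry2 to −4.02. A minimum of 10 TPM in place of 1 TPM left 39 pathway genes, and one of 0.1 TPM left 78. With 1 replicate left out, the pathway genes reached ranged from 56 to 67, the members with at least 10 TPM were 6 either way, and the log2 ratios ranged from 0.18 to 0.94 (Fgfr1 over Fgfr2), 1.39 to 1.59 (Sos1 over Sos2) and −3.89 to −3.28 (Spry4 over Spry2). Without replicate 1 the level of Mapk3 was 0.329 TPM, against 1.92 TPM with both.

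The members that passed were 7 with DESeq2 size factors (4 lower in replicate 2 and 3 higher), 6 without a filter, 5 with at least 10 counts in each library, which leaves out Mapk3, and 4 with a GC curve from genes with at least 200 counts, an alternative chosen after seeing the data. Over all genes 8842 passed, 6640 lower and 2202 higher, against 4203 lower and 4187 higher with TMM sizes, 3797 and 4598 with DESeq2 factors, and 3103 and 3308 with the GC curve. No paired analysis was possible because all libraries belong to 1 group. Depth limits Mapk3, Hras and Dusp9, with 4 to 8 counts in replicate 2.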
